A study of Mus with 12 samples.

Results

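Genomic imprinting silences 1 parental copy of a gene, so that only the copy from the mother or only the copy from the father is read. H19 is an imprinted long noncoding RNA read from the maternal copy. It lies beside Igf2, which encodes the fetal growth factor IGF2 and is read from the paternal copy, and the pair share enhancers and a control region bound by CTCF. H19 is abundant in the embryo and placenta and is shut down in most tissues after birth. Other imprinted genes act on the same growth axis. Igf2r encodes the receptor that carries IGF2 and lysosomal enzymes to lysosomes, Grb10 an adaptor that dampens insulin and IGF signalling, and Cdkn1c the cell cycle inhibitor p57. Plagl1 encodes a zinc finger transcription factor that acts on other imprinted genes, among them H19 and Igf2. Impact encodes an inhibitor of GCN2 kinase signalling, Peg3 a zinc finger protein, and Meg3 a maternally expressed long noncoding RNA.

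These 9 genes, chosen by their symbols, are described here over bulk RNA sequencing of mouse CD8 T cells, out of 55487 mouse gene rows. They were picked after H19 had been seen to be high in cells without BATF, so their levels in BATF-KO against WT cells are given as a description, with no test. All 9 had a row. Igf2r, Impact, H19 and Plagl1 reached 1 FPKM in at least 2 libraries, the filter used for the tests, which 13396 genes passed. Cdkn1c, Grb10, Igf2, Meg3 and Peg3 did not. FPKM counts fragments relative to transcript length and to the mapped fragments of the library.

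Naive CD8 T cells were isolated from C57BL/6 spleens with a kit. They were stimulated through plate-bound anti-CD3 (1 µg/ml) plus soluble anti-CD28 (2 µg/ml), and IL-2 was given at 100 U/ml. RNA was taken at 20 h, and the serum (10%) was charcoal-stripped, which makes it low in retinoids. BATF-KO cells lacked BATF, an AP-1 family transcription factor of activated T cells. RARα-KO cells carried a floxed Rara gene, which encodes the retinoic acid receptor RARα, cut by a Cre that the distal Lck promoter drives in T cells, and a transcript without the deleted exon is still made from it. WT cells were C57BL/6, and the study's methods also name dLck-Cre mice as controls. The labels spell the knockouts BATF KO and RARA KO. Cells of each genotype were cultured with retinoic acid (RA, 15 nM) or without it, which gave 6 groups of 2 libraries: BATF-KO+RA, BATF-KO, RARα-KO+RA, RARα-KO, WT+RA and WT. RA was read from a suffix in the sample titles, since all libraries carry 1 treatment label. Whether the 2 libraries of a group came from separate mice is not stated, so p-values measure the spread between these samples, which may be technical.

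Batf, the targeted gene, was at 4.05 to 4.90 FPKM in the 4 BATF-KO libraries, against 19.1 to 24.48 FPKM in the 4 WT libraries. Rara lay between 11.09 and 17.86 FPKM in every library, so its level does not check the RARα-KO label, while Cre was at 79.29 to 824.25 FPKM in the 4 libraries with that label, against at most 0.13 FPKM elsewhere. The 10 CD8 T cell markers summed to 3983 to 4704 FPKM in BATF-KO, 2959 to 3739 FPKM in RARα-KO and 3788 to 4735 FPKM in WT libraries. By the median over 4 libraries, 0 of these 10 were higher in RARα-KO than in WT cells. All 12 B cell markers, 9 of 10 NK cell markers and 6 of 9 myeloid markers were higher in every RARα-KO library than in every WT library, and fewer cells of a type and less RNA per cell cannot be told apart in such bulk samples. Replicates differed as well: markers of red cells and platelets summed to 148.78 to 511.8 FPKM in the 6 libraries numbered 1, and to 13.85 to 31.13 FPKM in the 6 numbered 2.

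H19 (ENSMUSG00000000031, a noncoding RNA gene of 2617 bp on chromosome 7, 142575530 to 142578146, GRCm38.p6) was present at a low level in WT cells and was several times higher in BATF-KO cells. H19 was at 9.69 and 7.39 FPKM in BATF-KO+RA cells and at 9.22 and 8.01 FPKM in BATF-KO cells. In RARα-KO+RA cells it was at 0.47 and 0.42 FPKM, and in RARα-KO cells at 0.64 and 0.38 FPKM. In WT+RA cells it was at 0.87 and 1.54 FPKM, and in WT cells at 0.27 and 1.47 FPKM. Every BATF-KO library thus lay above every library of the other genotypes, with a gap between 7.39 and 1.54 FPKM. No other step in the order of the 6 group means, from BATF-KO, BATF-KO+RA, WT+RA, WT and RARα-KO down to RARα-KO+RA, separated the libraries of neighbouring groups.

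**Figure D1:**
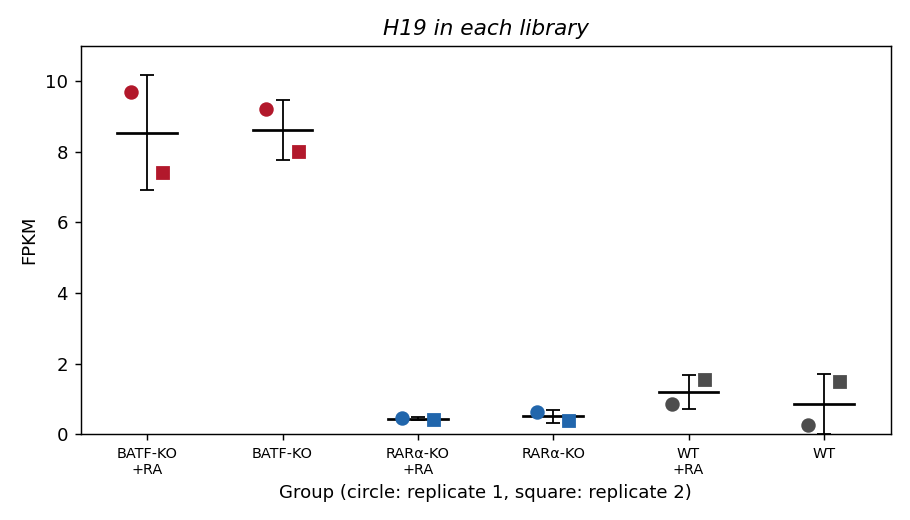
H19 in FPKM (vertical axis, from 0) in each of the 12 libraries, by group (horizontal axis). Circles are replicate 1 and squares replicate 2, and the horizontal line and bar are the mean and SD of 2 libraries. The 4 BATF-KO points lie at 7.39 to 9.69 FPKM and the 8 others at 0.27 to 1.54 FPKM.

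The mean of H19 was 8.54 ± 1.63 FPKM in BATF-KO+RA and 1.21 ± 0.47 FPKM in WT+RA cells (SD, n = 2 each), a ratio of 7.09. Without RA the means were 8.62 ± 0.86 FPKM in BATF-KO and 0.87 ± 0.85 FPKM in WT cells (SD, n = 2 each), a ratio of 9.90. The size of the second ratio rested on the WT libraries: it was 31.9 without WT replicate 2 and 5.86 without WT replicate 1. With RA the ratio ran between 5.55 and 9.82 when 1 library at a time was left out. Within libraries of the same number the order was the same, since H19 was at 9.22 FPKM in BATF-KO replicate 1 against 0.27 FPKM in WT replicate 1, and at 8.01 FPKM in BATF-KO replicate 2 against 1.47 FPKM in WT replicate 2. On the log2(FPKM + 1) scale, which understates the change of low genes, the fitted differences were 2.12 ± 0.30 with RA and 2.44 ± 0.30 without RA (± SE). Over 18 alternative settings their size ran between 1.90 and 2.42 with RA and between 1.96 and 2.92 without. Their sign could hardly change, since every BATF-KO library lay above every WT library. The share of all genes called in these 2 comparisons was 0.0672% with RA and 0.0523% without.

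H19 has been described in fetal, stromal and blood stem cells, and the marker lists of such cells were set beside it. The 8 stromal and fibroblast markers, collagens among them, summed to 0.25 to 0.42 FPKM in the BATF-KO libraries and to 0.21 to 0.63 FPKM in the WT libraries. None of these 8 passed the filter, 4 stayed under 0.1 FPKM everywhere, and Pdgfra and Lum were listed at 0 in every library. The 8 stem and progenitor markers summed to 3.88 to 8.05 FPKM in BATF-KO and to 3.57 to 6.32 FPKM in WT libraries, with Mecom at 0. B cell markers summed to 383.2 to 406.66 FPKM in BATF-KO and to 262.92 to 460.22 FPKM in WT libraries, so these ranges overlapped. Red cell and platelet markers were at 423.23 and 511.8 FPKM in the BATF-KO libraries numbered 1 and at 30.66 and 31.13 FPKM in those numbered 2, in which H19 was at 7.39 and 8.01 FPKM. In WT they were at 184.86 and 214.04 FPKM in the libraries numbered 1 and at 19.24 and 20.26 FPKM in those numbered 2, so each BATF-KO library was above the WT library of its number and RA condition. By the median over 4 libraries, 8 of 10 red cell and platelet, 12 of 12 B cell, 8 of 9 myeloid and 5 of 10 NK cell markers were higher in BATF-KO than in WT cells, and 0 of these had all 4 BATF-KO above all 4 WT libraries. The part of such cells in the level of H19 was not tested.

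RA made no detectable difference to H19 in any genotype. The fitted difference was -0.02 ± 0.30 in BATF-KO cells (adjusted p = 1), -0.06 ± 0.30 in RARα-KO cells (adjusted p = 1) and 0.30 ± 0.30 in WT cells (adjusted p = 0.917), by limma with Benjamini-Hochberg adjustment. The 95% intervals of these differences were -0.70 to 0.66, -0.74 to 0.62 and -0.38 to 0.98 on the log2 scale, so changes of that size were not resolved with 2 libraries a group. The RA effect differed by -0.32 ± 0.43 between BATF-KO and WT cells and by -0.36 ± 0.43 between RARα-KO and WT cells, and neither difference passed the test (adjusted p = 1 for both).

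In RARα-KO cells H19 was low, at 0.38 to 0.64 FPKM, although the lowest library of all was WT replicate 1 at 0.27 FPKM. With RA the mean was 0.445 ± 0.035 FPKM in RARα-KO+RA and 1.21 ± 0.47 FPKM in WT+RA cells (SD, n = 2 each), a ratio of 0.369. The fitted difference was -0.59 ± 0.30 and did not pass the test (limma, adjusted p = 0.499). It was -0.81 without WT+RA replicate 1 and -0.37 without WT+RA replicate 2. Without RA the mean was 0.51 ± 0.18 FPKM in RARα-KO and 0.87 ± 0.85 FPKM in WT cells, the libraries overlapped, and the fitted difference was -0.24 ± 0.30 (adjusted p = 0.937). This second difference took the opposite sign, 0.24, without WT replicate 2. With the mean log2 level of B cell markers as a further term in the fit, both differences turned positive, to 0.79 with RA and 1.08 without RA, and neither passed the test. Summed B cell markers were at 861.43 to 1062.85 FPKM in these cells, against 262.92 to 460.22 FPKM in WT cells, and their part in the level of H19 cannot be told apart from that of the genotype.

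Igf2r (chromosome 17, 12682406 to 12769706), the receptor that clears IGF2, was with Impact 1 of the 2 abundant genes among the 9. It was at 28.12 and 31.24 FPKM in BATF-KO+RA cells and at 24.2 and 27.85 FPKM in BATF-KO cells. It was at 21.5 and 15.06 FPKM in RARα-KO+RA cells, at 20.22 and 14.33 FPKM in RARα-KO cells, at 18.92 and 18.22 FPKM in WT+RA cells and at 16.71 and 18.13 FPKM in WT cells. All 4 BATF-KO libraries lay above the 8 others, the nearest of which was a RARα-KO+RA library at 21.5 FPKM. The ratio of means was 1.60 for BATF-KO+RA over WT+RA and 1.49 for BATF-KO over WT, and the fitted differences were 0.65 ± 0.20 and 0.55 ± 0.20. The RARα-KO libraries spread around the WT libraries, with differences of -0.04 ± 0.20 with RA and -0.03 ± 0.20 without (limma, adjusted p = 0.977 and 0.992). No RA difference of Igf2r passed the test. The fitted values were 0.18 ± 0.20 in BATF-KO cells, whose libraries with RA lay just above those without, 0.08 ± 0.20 in RARα-KO cells and 0.09 ± 0.20 in WT cells (adjusted p = 1, 1 and 0.952).

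Igf2r shares part of its locus with Airn, a noncoding RNA read from the other strand of the paternal copy, which is known to silence Igf2r there. The annotated genes overlap between 12741311 and 12769706, and whether the counting used strand is not given in the sources used here, so reads of that stretch cannot be told apart. Airn was at 12.99 and 6.38 FPKM in BATF-KO+RA, 9.82 and 5.64 FPKM in BATF-KO, 6.94 and 7.75 FPKM in WT+RA and 11.32 and 8 FPKM in WT cells. In contrast to Igf2r, the BATF-KO and WT libraries of Airn overlapped, with fitted differences of 0.29 ± 0.39 with RA and -0.31 ± 0.39 without RA (limma, adjusted p = 1 for both).

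Plagl1 (chromosome 10, 13090832 to 13131694), the transcription factor gene, was low and was likewise highest in BATF-KO cells. It was at 3.36 and 2.41 FPKM in BATF-KO+RA cells and at 3.24 and 2.34 FPKM in BATF-KO cells. It was at 0.52 and 0.83 FPKM in RARα-KO+RA cells, at 1.64 and 1.76 FPKM in RARα-KO cells, at 1.18 and 1.06 FPKM in WT+RA cells and at 1.01 and 1.83 FPKM in WT cells. Again the 4 BATF-KO libraries lay above the 8 others, by a gap between 2.34 and 1.83 FPKM. The ratio of means was 2.58 for BATF-KO+RA over WT+RA and 1.96 for BATF-KO over WT. The fitted differences were 0.86 ± 0.23 and 0.66 ± 0.23, and that without RA was 0.41 when WT replicate 1 was left out.

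Plagl1 was also the member with the largest RA difference. In RARα-KO cells it was at 0.68 ± 0.22 FPKM with RA and 1.70 ± 0.08 FPKM without RA (SD, n = 2 each), and the fitted difference was -0.69 ± 0.23. This was the only 1 of 12 RA differences of the 4 genes with an unadjusted p under 0.05 (0.0133), and it did not pass the test over all genes (limma, adjusted p = 1). In WT cells the difference was -0.17 ± 0.23 and in BATF-KO cells 0.04 ± 0.23. The RA effect in RARα-KO cells was not shown to differ from that in WT cells (difference -0.52 ± 0.32, adjusted p = 1).

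**Figure D2:**
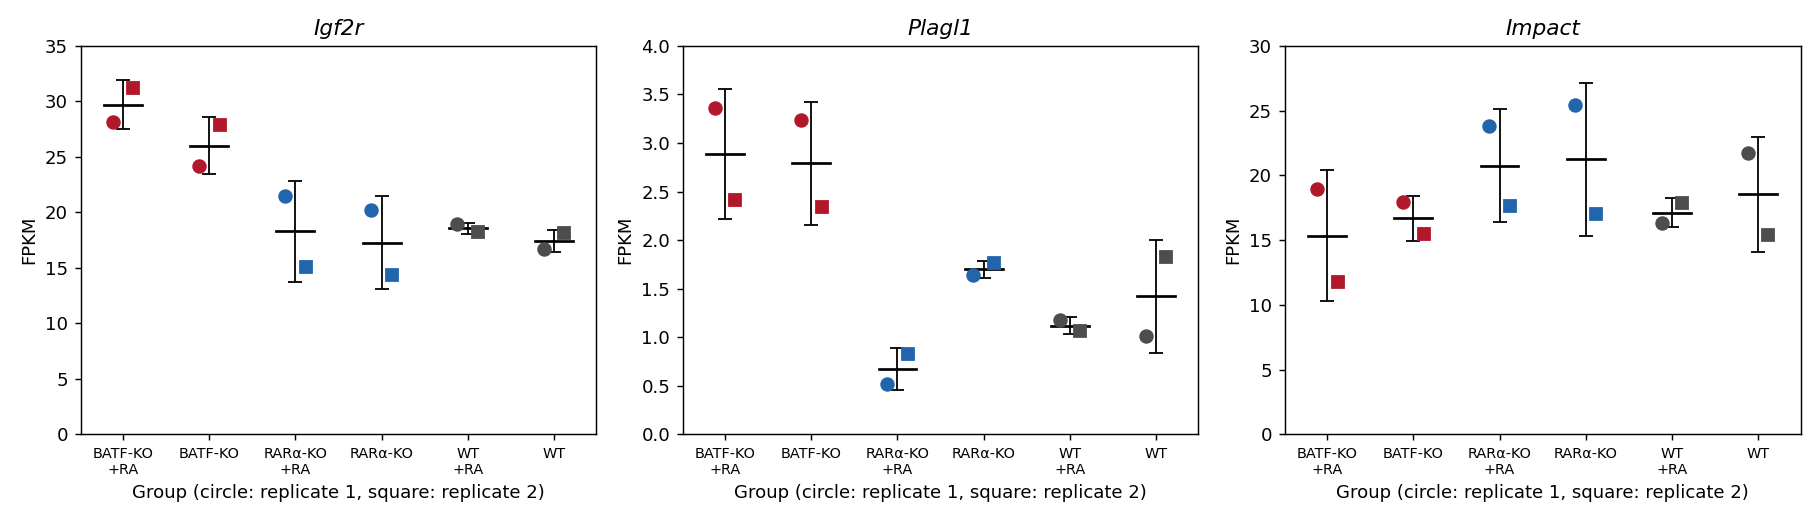
Igf2r, Plagl1 and Impact in FPKM (vertical axes, each from 0) in the 12 libraries, by group. Circles are replicate 1, squares replicate 2, lines and bars the mean and SD of 2 libraries. The BATF-KO points of Igf2r (24.2 to 31.24 FPKM) and Plagl1 (2.34 to 3.36 FPKM) lie above all others, and those of Impact (11.75 to 18.92 FPKM) do not.

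Impact, on chromosome 18, was at a level close to that of Igf2r and showed no such order. It was at 18.92 and 11.75 FPKM in BATF-KO+RA cells, at 17.92 and 15.45 FPKM in BATF-KO cells, at 23.83 and 17.67 FPKM in RARα-KO+RA cells and at 25.42 and 17.04 FPKM in RARα-KO cells. It was at 16.31 and 17.9 FPKM in WT+RA cells and at 21.7 and 15.42 FPKM in WT cells. Every group overlapped the next in the order of means, and in 5 of the 6 groups replicate 1 was the higher library. The ratio of means was 0.897 for BATF-KO+RA over WT+RA and 0.899 for BATF-KO over WT. The difference between RARα-KO and WT cells was 0.25 ± 0.27 with RA and 0.18 ± 0.27 without RA (limma, adjusted p = 0.823 and 0.946). With RA against without, Impact differed by -0.15 ± 0.27 in BATF-KO, -0.02 ± 0.27 in RARα-KO and -0.09 ± 0.27 in WT cells (adjusted p = 1, 1 and 0.964).

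Across the BATF-KO comparison, 3 of the 4 genes past the filter, H19, Igf2r and Plagl1, had all 4 BATF-KO libraries above the 8 others, as had 1.95% of all 13396 genes tested. Since H19 was chosen from this contrast, the count describes the 4 genes and no more. In the other comparisons 0 of the 4 genes were called by limma, with 1 unadjusted p under 0.05 among them, the Plagl1 value above. In that comparison, RA in RARα-KO cells, 190 of all genes had one. Of all genes, 3.76% were called between RARα-KO+RA and WT+RA cells, 3.29% between RARα-KO and WT cells, 0.157% with RA in BATF-KO cells, 0.00746% with RA in RARα-KO cells and 0.0672% with RA in WT cells. In the tests of a differing RA effect, 0 of all genes were called by limma, where 150 for BATF-KO and 184 for RARα-KO minus WT had an unadjusted p under 0.05.

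**Figure D3:**
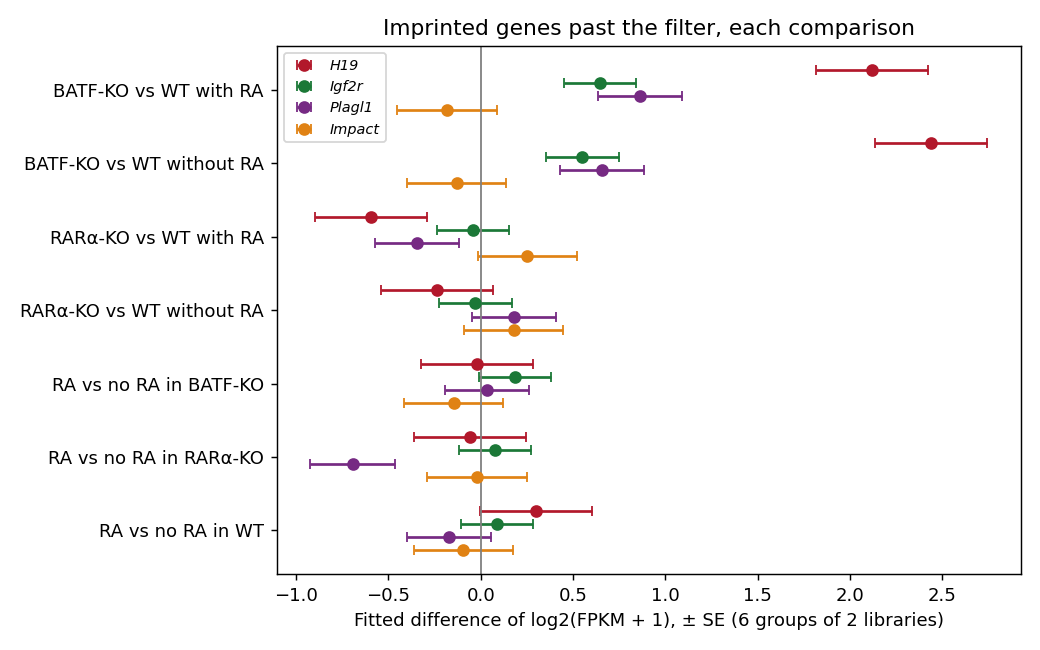
Fitted differences of log2(FPKM + 1) (horizontal axis) with their SE for H19, Igf2r, Plagl1 and Impact in 7 comparisons (vertical axis), from the fit over 12 libraries. H19 stands at 2.12 and 2.44 in the BATF-KO comparisons, which are a description for these genes, and between -0.59 and 0.30 in the 5 others, none of which passed the test.

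The remaining 5 genes were near or under the limit of what these libraries show. Cdkn1c (chromosome 7, 143458339 to 143461059), which lies 882.8 kb from H19 and encodes p57, reached 1 FPKM in 1 library only. It was at 0.53 and 0.91 FPKM in BATF-KO+RA, 0.74 and 1.32 FPKM in BATF-KO, 0.42 and 0.91 FPKM in RARα-KO+RA, 0.30 and 0.25 FPKM in RARα-KO, 0.74 and 0.96 FPKM in WT+RA and 0.49 and 0.71 FPKM in WT cells. The 2 RARα-KO libraries without RA were its lowest. BATF-KO and WT libraries overlapped with RA. Without RA they did not overlap, as held for 14.2% of the genes past the filter in this direction. Grb10 (chromosome 11, 11930499 to 12037428) was at 0.15 to 0.28 FPKM in the BATF-KO libraries, at 0.02 to 0.07 FPKM in those of RARα-KO and at 0.07 to 0.28 FPKM in those of WT.

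Igf2 (chromosome 7, 142650768 to 142666816), whose annotated start lies 75.2 kb from that of H19, was almost silent beside it. It was at 0.25 and 0 FPKM in BATF-KO+RA, 0.13 and 0.04 FPKM in BATF-KO, 0.19 and 0 FPKM in RARα-KO+RA, 0.03 and 0 FPKM in RARα-KO, 0.02 and 0.10 FPKM in WT+RA and 0.08 and 0.07 FPKM in WT cells. The highest Igf2 value was thus under the lowest H19 value, 0.27 FPKM. The BATF-KO libraries, in which H19 was high, overlapped the WT libraries for Igf2. Meg3 (chromosome 12, 109540996 to 109571729) was above 0 in 2 libraries, at most 0.06 FPKM, and Peg3 (chromosome 7, 6703892 to 6730462) was above 0 in 5, at most 0.03 FPKM. Mir675, the microRNA gene inside H19, was listed at 0 throughout, in libraries that were not made to hold short RNA.

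**Figure D4:**
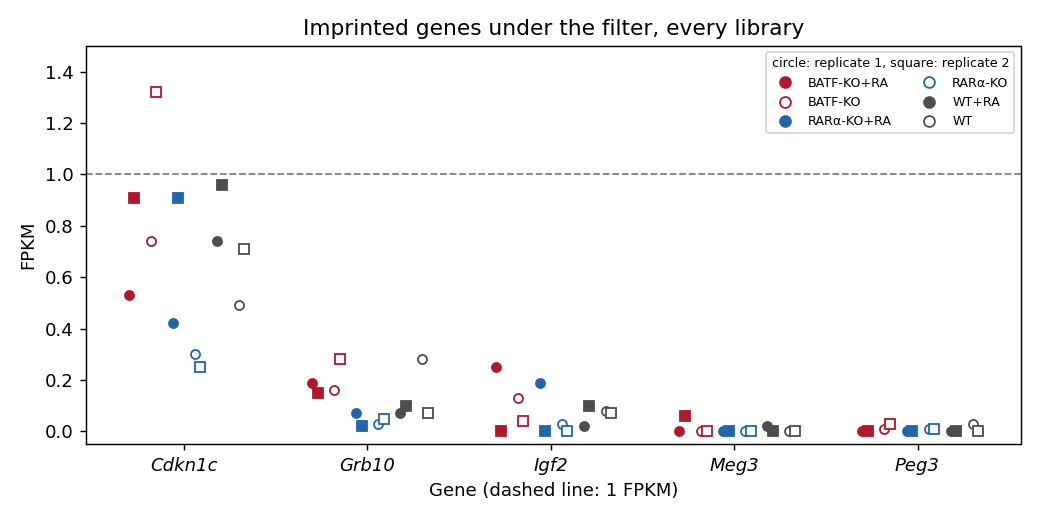
FPKM (vertical axis) of the 5 imprinted genes under the filter in each library. Colour is the genotype, filled points had RA, circles are replicate 1 and squares replicate 2. Cdkn1c alone passes the dashed line at 1 FPKM, in 1 library, and Igf2 stays at or under 0.25 FPKM.

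The genes around H19 were examined to see whether its level in BATF-KO cells was shared along the chromosome. Of 52 annotated genes that start within 500 kb of the H19 start, 49 had a row, 9 passed the filter and 26 were listed at 0 in every library, Th among them. Among the 40 under the filter the highest value was 0.82 FPKM, and the insulin gene Ins2 reached 0.16 FPKM. None of the 9 was called in BATF-KO against WT cells by limma, and 1 had an unadjusted p under 0.05, with RA and without, which was Cd81. Of all 13396 genes tested, 640 with RA and 521 without RA had one. Mrpl23, a mitochondrial ribosomal protein gene and the nearest of them at -43.1 kb, was at 106 and 114.12 FPKM in BATF-KO+RA and 102.45 and 118.68 FPKM in WT+RA cells, with differences of -0.0037 ± 0.16 with RA and 0.26 ± 0.16 without RA (adjusted p = 1 for both). The signs of the smallest differences below moved with the library left out.

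On the same side, Tnnt3 (a troponin gene, -76.8 kb) differed by 0.01 ± 0.23 with RA and 0.04 ± 0.23 without RA. Prr33 (-84.5 kb) differed by -0.15 ± 0.23 and -0.19 ± 0.23, and Lsp1, a leukocyte actin-binding protein gene (-117.3 kb), by 0.05 ± 0.13 and 0.12 ± 0.13. The values for the protease gene Ctsd (-199.6 kb) were 0.15 ± 0.26 and 0.18 ± 0.26, and for Ifitm10 (-249.7 kb) -0.03 ± 0.42 and 0.07 ± 0.42. All of these had an adjusted p of 1, where the H19 differences were 2.12 and 2.44.

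On the other side, the 3 genes past the filter lay at the far edge of the window. The tetraspanin gene Cd81 (477.2 kb) was at 10.75 and 15.45 FPKM in BATF-KO+RA cells, against 7.91 and 8.1 FPKM in WT+RA cells. Without RA it was at 10.18 and 13.31 FPKM in BATF-KO cells, against 5.9 and 7.11 FPKM in WT cells. These libraries did not overlap, as held for 17.5% of all genes with RA and 14.2% without RA in this direction, and the differences of 0.63 ± 0.19 and 0.76 ± 0.19 did not pass the test (adjusted p = 0.758 and 0.582). With RA the difference was 0.38 without BATF-KO+RA replicate 2. Cd81 had a difference of 0.79 in RARα-KO against WT cells without RA as well (adjusted p = 0.0561). Tspan32, a tetraspanin gene of blood cells (429.4 kb), differed by 0.31 ± 0.15 and 0.32 ± 0.15, and Tssc4 (492.9 kb) by 0.04 ± 0.22 and 0.12 ± 0.22 (adjusted p = 1 for all).

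**Figure D5:**
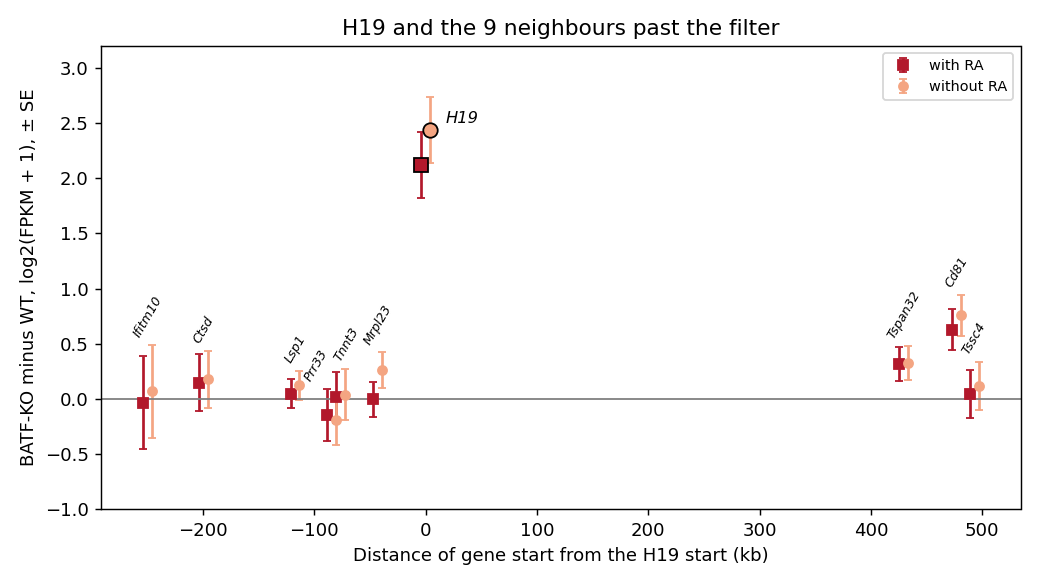
Fitted difference of log2(FPKM + 1), BATF-KO minus WT, with its SE (vertical axis) for H19 and the 9 neighbouring genes past the filter, by the distance of the gene start from the H19 start in kb (horizontal axis). Squares are with RA and circles without. H19 stands at 2.12 and 2.44, and the neighbours between -0.19 and 0.76.

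The other imprinted genes were taken from a list of 52, all with a row, of which 18 passed the filter and 32 stayed under 0.5 FPKM in every library. Whether any of them was read from only 1 parental copy in these cells was not measured. None of the 18 was called in any of the 9 comparisons by limma. In BATF-KO against WT cells, 2 with RA and 4 without RA had an unadjusted p under 0.05, and in RARα-KO against WT cells 2 with RA and 3 without RA. Of all 13396 genes tested, 640 with RA and 521 without RA had one in BATF-KO against WT cells. In RARα-KO against WT cells 1654 with RA and 1323 without RA had one. The median difference of the 18 was 0.09 in both BATF-KO comparisons, against 0.02 with RA and 0.0044 without RA over all genes. In the RA comparisons and the tests of a differing RA effect none of the 18 had an unadjusted p under 0.05.

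Of these 18 genes, 3 had all 4 BATF-KO libraries above the 8 others, against 1.95% of all genes, and 1 had them below, against 1.05%. The list was chosen with earlier results of these data known, so these counts are a description. Gnas, which encodes the G protein subunit that stimulates adenylyl cyclase, was at 488.17 and 572.07 FPKM in BATF-KO+RA and 442.53 and 463.23 FPKM in WT+RA cells, and at 527.01 and 603.61 FPKM in BATF-KO and 409.66 and 447.93 FPKM in WT cells. Its difference of 0.40 ± 0.12 without RA had the smallest p of the 18 (0.0104, adjusted p = 0.852), and the difference with RA was 0.22 ± 0.12 (adjusted p = 1). Ddc, the decarboxylase that makes dopamine and serotonin, was at 10.42 to 12.72 FPKM in the BATF-KO libraries and at 2.89 to 8.59 FPKM in the others (0.92 ± 0.39 with RA and 1.03 ± 0.39 without RA, adjusted p = 0.974 and 1). Without WT+RA replicate 1 the difference with RA was 0.38, and without WT replicate 1 that without RA was 0.45. Peg13, a noncoding RNA, was the gene that lay below, at 5.02 to 5.97 FPKM in the BATF-KO libraries and at 6.34 to 11.79 FPKM in the others (-0.36 ± 0.17 with RA and -0.44 ± 0.17 without RA, adjusted p = 1 for both).

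The third gene above was Snrpn, which encodes a splicing factor subunit and is read from the paternal copy. Snrpn was at 3.46 and 3.33 FPKM in BATF-KO+RA, 4.37 and 3.46 FPKM in BATF-KO, 0.84 and 0.37 FPKM in RARα-KO+RA, 0.83 and 0.54 FPKM in RARα-KO, 2.22 and 1.15 FPKM in WT+RA and 3.32 and 1.58 FPKM in WT cells. The lowest BATF-KO library was thus only just above the highest WT library, and all 4 RARα-KO libraries were below the 4 WT libraries, as held for 4.48% of all genes. The difference was 0.74 ± 0.29 in BATF-KO+RA against WT+RA cells (adjusted p = 0.944). It was -0.73 ± 0.29 in RARα-KO+RA against WT+RA and -0.99 ± 0.29 in RARα-KO against WT cells (adjusted p = 0.322 and 0.15). Leaving out 1 WT library moved these to between -1.02 and -0.44 with RA and between -1.36 and -0.62 without RA, the smaller sizes being those without WT+RA replicate 1 and WT replicate 1. The annotated Snurf and Snrpn genes overlap between 59982495 and 60005199, and reads of the shared stretch could have been split between them. Snurf was listed at 0 in 5 libraries and at up to 3.86 FPKM in the rest, so both are uncertain. Without RA, Snurf was listed at 0 in all 4 libraries of BATF-KO and RARα-KO cells and at 0.8 and 3.26 FPKM in WT cells.

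In RARα-KO against WT cells, the other genes named by their p were Peg13 (0.55 ± 0.17 with RA, adjusted p = 0.167), the ubiquitin ligase gene Ube3a (0.48 ± 0.22 with RA, adjusted p = 0.41) and Mcts2 (0.53 ± 0.23 without RA, adjusted p = 0.498). Mcts2 was at 3.18 and 4.24 FPKM in RARα-KO and 2.16 and 2.33 FPKM in WT cells. Peg13 was at 11.79 and 9.27 FPKM in RARα-KO+RA and 6.34 and 7.36 FPKM in WT+RA cells. The Ube3a difference was 0.12 without WT+RA replicate 1 and 0.84 without WT+RA replicate 2. These differences stood in the libraries in which B cell, NK cell and myeloid markers were higher, and the part of such cells in them cannot be told apart from that of the genotype.

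Among 17 genes of the insulin-like growth factor pathway other than the 9, 8 passed the filter, and 1 was called in 1 comparison. Igf2bp3, a fetal RNA-binding protein that binds the messenger RNA of Igf2, was at 4.61 and 4.59 FPKM in BATF-KO+RA cells, 5.6 and 5.27 FPKM in BATF-KO cells, 0.53 and 0.42 FPKM in RARα-KO+RA cells, 0.28 and 0.4 FPKM in RARα-KO cells, 1.85 and 0.98 FPKM in WT+RA cells and 1.36 and 1.5 FPKM in WT cells. The 3 genotypes did not overlap in any library, in a gene that was named after its values were seen. Of all genes, 1.95% had the 4 BATF-KO libraries above the 8 others, and 4.48% had the 4 RARα-KO libraries below the 4 WT libraries. In RARα-KO against WT cells Igf2bp3 fell by 0.86 ± 0.20 without RA (limma, adjusted p = 0.0485), a call that 13 of 19 alternative settings lost (adjusted p between 0.0247 and 0.602), and the difference with RA was -0.69 ± 0.20 (adjusted p = 0.112), which passed in 1 of 19. With the level of B cell markers as a further term, the RARα-KO difference without RA was -1.26 (limma, adjusted p = 0.602). The part of other cells in it cannot be told apart from that of the genotype. In BATF-KO against WT cells the differences were 1.24 ± 0.20 with RA and 1.41 ± 0.20 without RA, and neither passed the test (adjusted p = 0.0951 and 0.0617). The difference without RA passed in 3 of 18 alternative settings (adjusted p between 0.0351 and 0.666) and that with RA in 0 (between 0.0529 and 0.737). The other 7, among them the receptors Igf1r and Insr, the adaptor Irs2, the kinase Akt1 and the mannose 6-phosphate receptor M6pr, were not called in any of the 9 comparisons.

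Of 18 genes known to set or keep the methylation of imprinted regions, such as Dnmt1, Uhrf1, Trim28, Ctcf and Zfp445, 15 passed the filter and none was called in any of the 9 comparisons by limma. In BATF-KO against WT cells 1 had an unadjusted p under 0.05 with RA, the methyltransferase gene Dnmt3a (0.69 ± 0.29, adjusted p = 0.966), and 0 without RA. In RARα-KO against WT cells 1 had one with RA and 0 without RA. Over all 13396 genes tested the counts were 640 with RA and 521 without RA for BATF-KO, and 1654 and 1323 for RARα-KO. Of the 15, 14 were higher in BATF-KO+RA than in WT+RA cells, with a median difference of 0.28 against 0.02 over all genes, and 9 were higher in BATF-KO than in WT cells, with a median of 0.05 against 0.0044. Several of these genes parted the replicates instead of the groups. Uhrf1 was at 79.05 and 104 FPKM in BATF-KO+RA and at 46.66 and 103.76 FPKM in WT+RA cells, and at 61.73 and 91.59 FPKM in BATF-KO and at 27.12 and 100.06 FPKM in WT cells. Methylation was not measured, and neither was the parental copy from which any transcript came.

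The genes whose log2(FPKM + 1) was most like that of H19 over the 12 libraries were Mid1 (Pearson r = 0.97), Lrrc32 (0.97), Erdr1 (0.97), Ccnb2 (0.96) and Mxd3 (0.96), of 9911 genes with a mean of at least 2 FPKM. These values share libraries and rest mainly on the 4 BATF-KO libraries, and over the 8 others r was 0.68, 0.86, 0.85, 0.73 and 0.90. BATF-KO and WT cells came from different mice. For H19 and for these genes, other differences between those mice cannot be told apart from the loss of BATF. Mid1 was at 135.85 and 183.21 FPKM in BATF-KO+RA cells and at 117.55 and 179.6 FPKM in BATF-KO cells, against 7.38 and 7.5 FPKM in WT+RA and 4.59 and 6.39 FPKM in WT cells. It was at 1.47 and 1.9 FPKM in RARα-KO+RA and at 1.3 and 1.99 FPKM in RARα-KO cells. Mid1 was called lower in RARα-KO than in WT cells (limma, -1.66 with RA, adjusted p = 0.0045, and -1.29 without RA, adjusted p = 0.0187). Of all genes, 3.76% and 3.29% were called there, and Lrrc32, Erdr1, Ccnb2 and Mxd3 were not. Lrrc32, which encodes the TGF-β docking receptor GARP, was at 8.38 to 13.55 FPKM in BATF-KO, 0.67 to 1.23 FPKM in RARα-KO and 1.38 to 3.66 FPKM in WT libraries. Among the imprinted genes, r with H19 was 0.87 for Igf2r, 0.85 for Plagl1 and -0.49 for Impact, and over the 8 libraries other than BATF-KO it was 0.32, 0.31 and -0.47.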

How the data were processed

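Naive CD8 T cells of 3 genotypes, with or without RA, gave 12 poly-A-enriched libraries, 2 per group (the labels also name a total RNA kit, and which step decided the capture of noncoding RNA is not settled). Per the labels, the authors trimmed the reads, mapped them to GRCm38 with STAR 2.7.8a and estimated gene abundance with RSEM 1.3.3. The deposited values, as FPKM, were used as they stand. The file holds no counts, so the absolute depth behind a value is unknown. The 4 transgene rows were left out of the tests.

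The 9 members and the gene lists were chosen with earlier results of these data known. Rows were matched by symbol, and positions came from the RefSeq annotation of GRCm38.p6. The start of a gene is its lower coordinate, on either strand. Genes with at least 1 FPKM in at least 2 libraries (13396) were fitted with limma 3.58.1 in R 4.3.3 on log2(FPKM + 1), with 6 group means over all 12 libraries, a trended prior and Benjamini-Hochberg adjustment over all genes, called under 0.05. The residual degrees of freedom were 6. For the 9 genes no test was used in BATF-KO against WT cells, the contrast that chose H19.

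Genes were named by rule: all 9 members, up to 3 other imprinted genes with the smallest adjusted p per comparison, neighbours past the filter within 500 kb of the H19 start, and the 5 genes most like H19. In the RA comparisons those other imprinted genes are given as counts. Igf2bp3, Airn, Dnmt3a and Uhrf1 were named after their values were seen. Th, Ins2, Mir675 and the genes given as examples of the growth factor and methylation lists were also outside the rule. Libraries with the same number deviated together within each genotype (r of deviations 0.40 in BATF-KO, 0.58 in RARα-KO and 0.43 in WT), so RA comparisons were also fitted with a replicate block. Between genotypes r was 0.08 to 0.45, and whether RA cultures of the same number share a source is not stated. Cre was at 824.25 and 680.9 FPKM in RARα-KO and RARα-KO+RA replicate 1, and at 79.29 and 86.67 FPKM in replicate 2. The RA differences in the Results are from the fit without the block. Other alternatives were a pseudocount of 0.5, no filter, values scaled to TPM, quantile normalization, each library left out, and only the groups compared. A fit with B cell markers (their mean log2 level) as a further term was added after the data were seen. The fit was tested on simulated data. No sequence is printed.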

Additional observations from a re-analysis of the deposited data

Results flagged for a closer look

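The table holds a row for the Cre transgene, which no comparison above used. Cre was at 680.9 and 86.67 FPKM in RARα-KO+RA replicates 1 and 2 and at 824.25 and 79.29 FPKM in RARα-KO replicates 1 and 2, against at most 0.13 FPKM in the libraries of the other genotypes. It is listed because it is a signal outside the genes compared that is far above its level in the control libraries, and because the replicates of RARα-KO differ in it.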

How the results depend on the processing

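H19, Igf2r and Plagl1 stayed higher in BATF-KO than in WT cells, with and without RA, under each of the 18 alternatives. Every BATF-KO library lay above every WT library for these genes, so this sign could hardly change and adds no support. No member passed the test under any alternative in the comparisons that were tested. The replicate block by genotype and number, which treats RA cultures of the same number as paired, changed no call of a member. Scaled to TPM, the mean of H19 was 11.1 in BATF-KO+RA, 11.1 in BATF-KO and 0.595 in RARα-KO+RA cells. No scaling moved the median of all genes by as much as 0.1 on the log2 scale.

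The count of all genes called moved more. With no filter it was 18 for BATF-KO against WT cells with RA, 21 for RA in WT, 12 for RA in RARα-KO, and 14 and 16 for the RA effect of BATF-KO and of RARα-KO minus WT. With the replicate block over all genotypes it was 21 for BATF-KO against WT cells with RA and 21 without RA, and 32, 48 and 3 for RA in WT, BATF-KO and RARα-KO. For libraries of different genotypes the labels give the number no shared source and r of deviations was 0.08 to 0.45, although red cell and platelet markers parted the numbers in every genotype. Under that block 1 other imprinted gene, Snrpn, was called in RARα-KO against WT cells without RA (-0.99, adjusted p = 0.0198, between 0.0198 and 0.865 over 19 alternatives). With the replicate block by genotype and number, which treats RA cultures of the same number as paired, the count was 70, 119 and 11 for RA in WT, BATF-KO and RARα-KO. From only the groups compared it was 1 and 0 for BATF-KO against WT cells with and without RA, 320 and 80 for RARα-KO against WT cells with and without RA, and 0, 1 and 0 for RA in WT, BATF-KO and RARα-KO. With each library left out in turn it was 4 to 8 for BATF-KO against WT cells with RA (against 9), 1 to 5 for BATF-KO against WT cells without RA (against 7), 246 to 499 for RARα-KO against WT cells with RA (against 504), 247 to 423 for RARα-KO against WT cells without RA (against 441), 4 to 16 for the RA effect in WT cells (against 9), 3 to 28 for the RA effect in BATF-KO cells (against 21) and 0 to 1 for the RA effect in RARα-KO cells (against 1).

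The signs of small differences that did not pass the test depended on settings. In a fit that held the mean log2 level of the B cell markers as a further term, which nearly follows the genotype, 18 genes with RA and 20 without RA were called in RARα-KO against WT cells. The difference was then 0.79 with RA and 1.08 without RA for H19, 0.73 and 0.70 for Igf2r and -0.29 and -0.34 for Impact, and none of these passed the test. Scaling to TPM gave 0.0065 for Mrpl23 in BATF-KO against WT cells with RA, 0.019 for Igf2r in RARα-KO against WT cells with RA and 0.032 for its RA effect of RARα-KO minus WT cells. Quantile normalization gave -0.053 for Tnnt3 in BATF-KO against WT cells with RA. With each library left out in turn, the difference changed sign in the following. In BATF-KO against WT cells with RA, it was -0.084 to 0.38 for Ctsd, -0.31 to 0.24 for Ifitm10, -0.50 to 0.14 for Impact, -0.023 to 0.12 for Lsp1, -0.11 to 0.10 for Mrpl23, -0.37 to 0.079 for Prr33, -0.15 to 0.17 for Tnnt3 and -0.091 to 0.17 for Tssc4. In BATF-KO against WT cells without RA, it was -0.076 to 0.43 for Ctsd, -0.56 to 0.70 for Ifitm10, -0.36 to 0.10 for Impact, -0.38 to 0.0094 for Prr33, -0.33 to 0.41 for Tnnt3 and -0.015 to 0.25 for Tssc4. In RARα-KO against WT cells with RA, it was -0.28 to 0.20 for Igf2r. In RARα-KO against WT cells without RA, it was -0.72 to 0.24 for H19, -0.26 to 0.21 for Igf2r, -0.10 to 0.45 for Impact and -0.068 to 0.43 for Plagl1. In the RA effect in WT cells, it was -0.18 to 0.78 for H19, -0.33 to 0.14 for Impact and -0.42 to 0.076 for Plagl1. In the RA effect in BATF-KO cells, it was -0.19 to 0.16 for H19, -0.47 to 0.18 for Impact and -0.14 to 0.21 for Plagl1. In the RA effect in RARα-KO cells, it was -0.18 to 0.066 for H19, -0.17 to 0.32 for Igf2r and -0.30 to 0.26 for Impact. In the RA effect of BATF-KO minus WT cells, it was -0.80 to 0.16 for H19, -0.0014 to 0.19 for Igf2r, -0.37 to 0.27 for Impact and -0.041 to 0.45 for Plagl1. In the RA effect of RARα-KO minus WT cells, it was -0.84 to 0.12 for H19, -0.26 to 0.23 for Igf2r and -0.20 to 0.35 for Impact. In the fits without 1 library of a group, the lone library was assumed to vary like the others.

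With 2 libraries per group, an RA difference of H19 in WT cells had a 95% interval of -0.38 to 0.98, and genes under 1 FPKM were described only.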
